A study of Mus musculus with 22 samples.

Results

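The comparison described here sets mouse gastruloids labelled Hox-/- and grown with Activin A against wild-type gastruloids grown with Chiron, both at 120 h. It asks how far the mutant Activin gastruloids resemble the Chiron ones and what Activin still adds. Its members were chosen by label: the 2 libraries of Hox-/- gastruloids treated with Activin A (ActA, titled BADC) and the 2 libraries of wild-type gastruloids treated with Chiron, 4 of the 22 samples of the series. Genotype and treatment both differ between the groups, and Y-linked genes, given below, differ too. The labels do not say whether the lines are isogenic. A difference between the groups therefore belongs to treatment, genotype and line together. Wild-type gastruloids treated with Activin A at 120 h (2 libraries) differ from the Chiron ones in treatment by label and are therefore given beside each result. The contrast between wild-type Activin and Chiron is called the treatment step, and the contrast between Hox-/- and wild-type, both in Activin, the genotype step. The genotype step holds any other difference between the lines as well. The treatment step shares its Chiron libraries with the main comparison and the genotype step shares its Hox-/- libraries, so their values are only set side by side. Both steps also use the wild-type Activin libraries, with opposite signs. A gene that is high or low in those libraries thus moves the steps in opposite directions. Libraries of the same groups at 96 h, 24 h earlier, share no library with those at 120 h.

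All the groups derive from mouse embryonic stem cells maintained in 2i and LIF, and polyadenylated RNA was made into stranded libraries. The labels give the samples as mixed cells. The number of clones behind the Hox-/- genotype, the deleted intervals, and the doses and timing of Activin A and Chiron are not given in the sources used here. Nothing in them says that replicates came from separate cultures, so p-values measure the spread between these libraries, which may be technical. In mixed cells, fewer cells of a type and less RNA per cell cannot be told apart, and this holds for every gene below.

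Gastruloids are aggregates of pluripotent cells that break symmetry, elongate and form tissues of the gastrulating embryo without maternal or extraembryonic tissue. Chiron inhibits the kinase GSK3 and so stabilises β-catenin, the effector of Wnt signalling. It drives cells towards posterior mesoderm, the neuromesodermal progenitors of the tail end and their somites. Activin A binds the receptors that Nodal also uses. These phosphorylate Smad2 and Smad3, which join Smad4 and partner factors such as Foxh1 to switch on mesendoderm genes and the pathway's own inhibitors. High Nodal or Activin signalling in the gastrula is known for definitive endoderm and for the node and notochord, and lower signalling for mesoderm. Hox genes lie in 4 clusters and are switched on in order along each, giving cells of the trunk and tail their position.

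The 4 libraries compared held between 9431255 and 11930416 counts, and the 2 wild-type Activin libraries 9251232 and 9108085. A floor of 3 counts in a library, below which a gene is treated as undetected, is worth 0.251 to 0.329 CPM (counts scaled to a common library total) at 120 h and covers counting error only. All 12 gastruloid libraries were fitted together with edgeR's quasi-likelihood test on 17235 genes, and a gene was called when its Benjamini-Hochberg adjusted p was under 0.05. Values below are CPM for replicate 1 and replicate 2. CPM and log2 differences are compared within a gene and not between genes. Differences are log2 fold changes with their standard error, n = 2 libraries per group. An exact permutation test of 2 libraries against 2 cannot go below p = 0.333, so the tests rest on the spread shared across genes. The counting tool and its strand setting are not given in the sources used here. Reads of Eomes, Fn1, Gata6, Gli1, Dll1, Nrarp, Foxf1, Pax1, Pax9, Fst, Mest, Selenop and several other genes can therefore not be told apart from those of genes that overlap their exons.

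The Hox genes were read first, since they check the genotype labels. Together the 39 Hox genes gave 2032 and 2192 CPM in the Chiron libraries, 1190 and 1167 CPM in wild-type Activin, and 63.79 and 69.48 CPM in Hox-/- Activin. The mutant sum was thus 3.15% of the Chiron sum. Of the 35 Hox genes tested, 33 were lower and 2 higher in Hox-/- Activin, against 22.0% of all genes called lower and 21.7% called higher. The other 4, Hoxb13, Hoxc12, Hoxc13 and Hoxd12, had at most 4 counts in any 120 h library. At or under the floor in both mutant libraries were 27 Hox genes, against 5 in Chiron and 4 in wild-type Activin. Of the genes with some reads left, Hoxb9 had 0.776 and 0.748 CPM against 238 and 235 CPM in Chiron (log2 −8.20 ± 0.12, adjusted p = 3.2e-30). Hoxb8 had 0.69 and 0.374 CPM against 137 and 139 CPM. Genes with 0 counts in both mutant libraries included Hoxd9, at 56.1 and 61.7 CPM in Chiron and so at least 218-fold lower with a floor of 3 counts per library. By the same floor Hoxc10 was at least 139-fold and Hoxd8 at least 135-fold lower. Where a few counts remained, a ratio of CPM from summed counts is given with its exact 95% interval, which covers counting error only. Hoxd4, at 173 and 214 CPM in Chiron and at the floor in the mutant, was lower by a ratio of 710 (326 to 1930).

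Some Hox genes did not follow the rest. Hoxd1 kept 1.47 and 1.12 CPM against 10.9 and 10.5 CPM (log2 −2.97). Hoxa13 and Hoxd13, terminal genes of their clusters that mark the tail end, were higher. Hoxa13 had 21.7 and 20.5 CPM in Hox-/- Activin, 0 and 0.106 CPM in Chiron, and 0.108 and 0.329 CPM in wild-type Activin. Against the single Chiron count the ratio was 451 (80.6 to 17900). Hoxd13 had 3.62 and 3.83 CPM against 0.587 and 0.212 CPM (log2 3.18 ± 0.41, adjusted p = 1.5e-07).

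Reads were also gained beside the clusters. Evx2, a homeobox gene next to Hoxd13, had 8.02 and 7.86 CPM in Hox-/- Activin and 0.0838 and 0 CPM in Chiron, a ratio of 170 (30 to 6740). Evx1 and Evx1os, which overlap each other beyond Hoxa13, were higher by 0.97 and 1.24 on the log2 scale. Lnpk, beyond Evx2, was higher by 0.70. Of the 12 tested neighbours of the clusters, 5 were higher and 2 lower, beside 21.7% and 22.0% of all genes. The Y-linked Ddx3y, Eif2s3y and Uty were at or under the floor in both mutant libraries and between 29.1 and 42 CPM on average in Chiron, and the labels do not say whether the lines are isogenic.

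**Figure D1:**
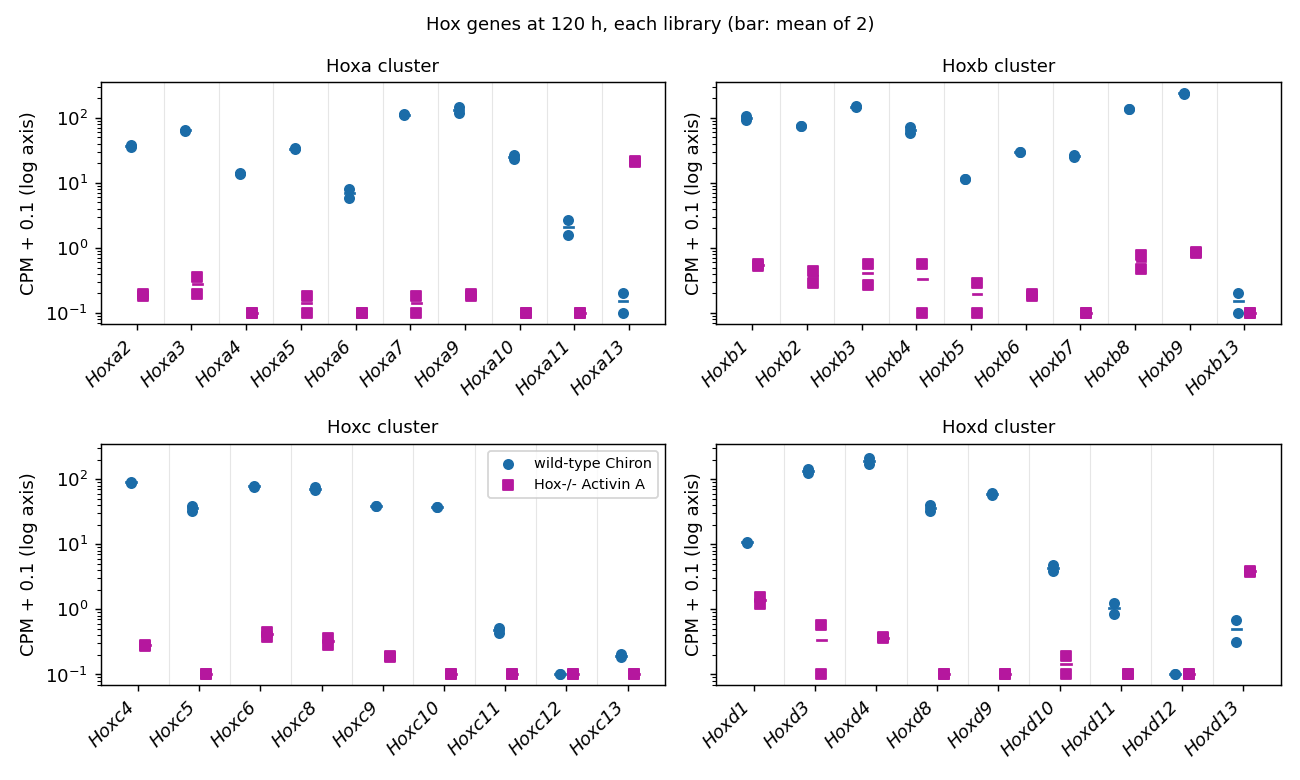
Each panel shows 1 Hox cluster, with genes of it along the x axis and CPM plus 0.1 on a log y axis, at 120 h. Points are libraries and bars the mean of 2. Most genes sit well above their Hox-/- Activin level in wild-type Chiron, and a few, such as Hoxd1, keep some reads in Hox-/- Activin. The terminal Hoxa13 and Hoxd13 are higher in Hox-/- Activin. Of all 39 Hox genes, 5 are at or under the floor in Chiron.

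Across all genes, the Hox-/- Activin gastruloids stood about as far from Chiron as wild-type Activin gastruloids did. The 4 pairs of a Hox-/- Activin and a Chiron library had a median absolute log2 difference of 0.309 to 0.317, and 16.8% to 17.2% of genes differed over 2-fold. The pairs of a wild-type Activin and a Chiron library had medians of 0.292 to 0.307, with 15.9% to 17% of genes over 2-fold. The pairs of a Hox-/- and a wild-type Activin library had medians of 0.331 to 0.348. Libraries of 1 group differed from each other by 0.105 to 0.129. By this measure of the whole transcriptome the mutant Activin gastruloids were not nearer to Chiron than the wild-type Activin ones, and no test was run on these distances.

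Between Hox-/- Activin and Chiron, 7534 genes were called (43.7% of those tested), 3741 higher and 3793 lower. At least 2-fold were 2312 of them (13.4%), 1118 higher (6.49%) and 1194 lower (6.93%). The treatment step called 7341 genes (42.6%), and its 2242 calls of at least 2-fold (13.0%) ran mostly up, 1745 higher (10.1%) against 497 lower (2.88%). The genotype step called 8086 (46.9%), and its 2379 calls of at least 2-fold (13.8%) ran mostly down, 545 higher (3.16%) against 1834 lower (10.6%). The wild-type Activin libraries enter both steps with opposite signs, so these opposite directions are not separate results. The median over all genes between Hox-/- Activin and Chiron was −0.003, and 68.8% of genes lay within 1.5-fold.

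Most genes of the Nodal and Activin pathway were higher in the mutant Activin gastruloids. Of 23 tested members of the Nodal and Activin list, 14 were higher and 3 lower in Hox-/- Activin than in Chiron, against 21.7% and 22.0% of all genes. The list's median difference was 0.65. Summed, it gave 1797 and 1781 CPM in Hox-/- Activin, 1808 and 1786 CPM in wild-type Activin and 849.8 and 858.8 CPM in Chiron. The sums of the 2 Activin groups thus overlapped, about 2 times above Chiron, although single members differed between these groups in both directions.

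The ligand and its feedback inhibitors were higher. Lefty2, a secreted antagonist of Nodal that Nodal itself switches on, had 408 and 399.7 CPM in Hox-/- Activin and 10.9 and 11.1 CPM in Chiron (log2 5.26 ± 0.12, adjusted p = 1.1e-25). In wild-type Activin it had 244 and 237 CPM, so the mutant was higher again by 0.86. Its relative Lefty1 had 213 and 217 CPM in the mutant and 12.5 and 11 CPM in Chiron (log2 4.24 ± 0.15), beside 248 and 254 CPM in wild-type Activin, a genotype step of −0.11 that did not pass the test. Nodal, the ligand, had 69.7 and 76.1 CPM in the mutant, 5.7 and 7.85 CPM in Chiron and 41.8 CPM in both wild-type Activin libraries (log2 against Chiron 3.51 ± 0.13, genotype step 0.91). For Lefty2 and Nodal the order was Hox-/- Activin, wild-type Activin, Chiron, with no overlap between groups.

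Nuclear factors and targets of the pathway moved the same way. Foxh1, the DNA-binding partner of the Smads, had 55.2 and 51.5 CPM against 7.29 and 6.68 CPM in Chiron (log2 2.99 ± 0.11, adjusted p = 2.5e-20). Pmepa1, a target that dampens the pathway, had 27.3 and 30.7 CPM against 2.18 and 3.92 CPM, with 26.9 and 26 CPM in wild-type Activin. Mixl1, a homeobox gene of the primitive streak, had 16.2 and 14.4 CPM against 0.754 and 1.48 CPM (log2 3.88), and only 7.03 and 6.37 CPM in wild-type Activin. Eomes, a T-box gene needed for endoderm, had 13 and 15.6 CPM against 0.335 and 0.848 CPM (log2 4.71 ± 0.29). Gsc, a homeobox gene of the organizer, had 5.43 and 7.95 CPM against 0.335 and 0.424 CPM (log2 4.18 ± 0.37, adjusted p = 8.5e-11). Eomes and Gsc were below their levels in wild-type Activin, by 0.95 and 1.57 on the log2 scale, while Mixl1 was above by 1.31. Smaller rises were called for Smad7 (1.39), Skil (0.82) and Tgif1 (0.65), all negative regulators of the pathway.

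Receptors and Smads moved little. Smad2 was higher by 0.23 and the receptor Acvr2b by 0.27, calls that limma on FPKM did not make, and Acvr2b was 0.13 and not called without Hox-/- Activin replicate 1, while the receptor Acvr2a was lower (34.6 and 30.9 CPM against 44.5 and 45.7 CPM, log2 −0.40). Smad3 (0.05), Smad4 (0.10), Acvr1b (0.15) and the Activin subunit Inhbb (−1.44) did not pass the test. Lower in the mutant were Tdgf1, the co-receptor Cripto (7.76 and 6.55 CPM against 20.9 and 19 CPM, log2 −1.42), and Gdf3, a Nodal-like ligand of pluripotent cells, at the floor against 4.61 and 4.77 CPM (a ratio of 34.8, interval 11.6 to 172). Gdf1, Inhba and Acvr1c had too few counts to be tested.

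2 secreted inhibitors of the list separated the Activin groups from each other instead. Fst, follistatin, which binds Activin, had 30.8 and 28.6 CPM in Hox-/- Activin and 32.9 and 27.4 CPM in Chiron (log2 0.03, adjusted p = 0.84), but 149 and 141 CPM in wild-type Activin. Cer1, a Nodal antagonist of anterior endoderm, had 21.9 and 21 CPM against 24.2 and 19 CPM (log2 0.04, adjusted p = 0.95), but 108 and 107 CPM in wild-type Activin. For both genes the Hox-/- Activin and Chiron libraries overlapped. Their genotype steps were −2.17 for Fst and −2.21 for Cer1.

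**Figure D2:**
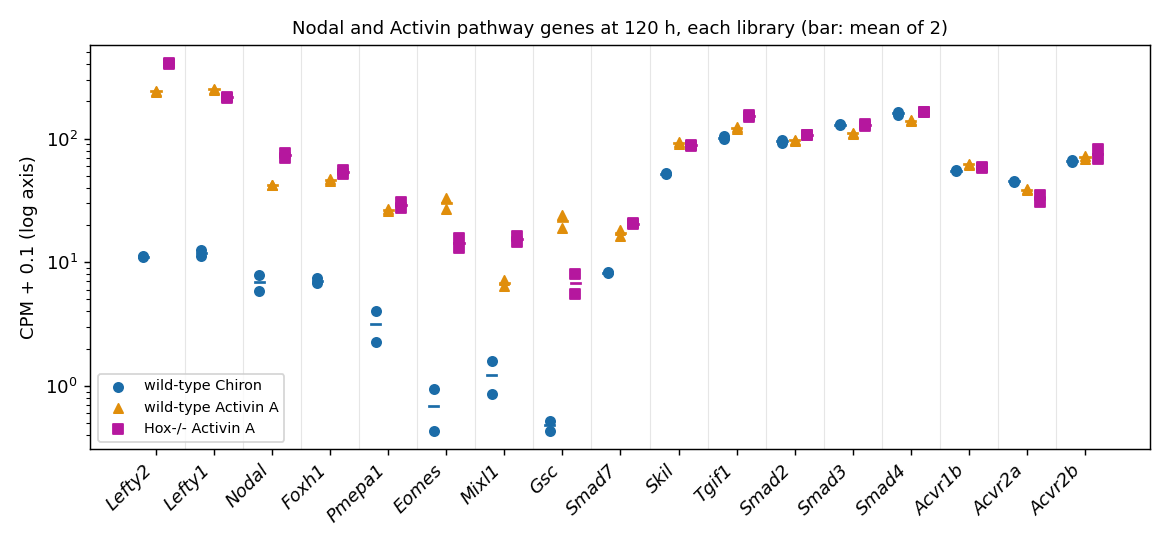
The x axis lists 17 genes of the Nodal and Activin pathway and the log y axis gives CPM plus 0.1 at 120 h, for Hox-/- Activin, wild-type Activin and wild-type Chiron. Points are libraries and bars the mean of 2. From Lefty2 (mean near 404 against 11 CPM) to Tgif1 both Activin groups lie above Chiron, while Smad2, Smad3, Smad4 and the receptors lie close together in all 3 groups.

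Definitive endoderm had the largest treatment step of the 30 gene lists: all 24 tested genes of the endoderm list were higher in the treatment step, against 20.7% of all genes called higher, with a median of 4.03. In Hox-/- Activin the members went both ways against Chiron. The list's sum was 318.3 and 312.6 CPM in the mutant, 235.5 and 240.6 CPM in Chiron and 2394 and 2448 CPM in wild-type Activin. Single genes weigh on these sums, as Trh does in wild-type Activin and Cxcr4 in the mutant, both given below. Against Chiron 8 members were higher and 6 lower, near the background of 21.7% and 22.0%, and 10 did not pass the test. At least 2-fold were 8 of the higher and 4 of the lower, against 6.49% and 6.93% of all genes, and the median absolute difference was 1.13. In the genotype step 22 of the 24 were lower and 0 higher, against 23.9% and 23.0% of all genes, with a median of −3.85.

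Of the 8 members that were higher, 4 are given first. Sox17, which specifies definitive endoderm, had 4.66 and 2.9 CPM in Hox-/- Activin, 1.09 and 1.06 CPM in Chiron and 57.4 and 57.3 CPM in wild-type Activin (log2 against Chiron 1.88 ± 0.33, adjusted p = 2.6e-05). Foxa2, the pioneer factor of endoderm and notochord, had 1.98 and 1.87 CPM, 0.754 and 0.53 CPM, and 65 and 61.3 CPM in the same order (log2 1.61 ± 0.39, adjusted p = 0.0012). Both genes stood above Chiron without overlap, but far below wild-type Activin. Hhex was higher by 1.45 and Krt8 by 1.31, again at low levels beside wild-type Activin (38.9 and 36.5 CPM for Hhex and 204.5 and 210.3 CPM for Krt8).

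The other 4 higher members are also known from mesoderm or the organizer, and they were picked out after their values were seen. The split is not clean, since Foxa2 is also in the node and notochord list and Sox17 in the endothelial and blood list. Lhx1, a homeobox gene of endoderm, node and intermediate mesoderm, had 42.6 and 42.8 CPM in the mutant against 3.44 and 4.35 CPM in Chiron (log2 3.53 ± 0.15), and 73.6 and 75.7 CPM in wild-type Activin. Gata6, a zinc-finger factor of endoderm and of heart and lateral mesoderm, had 16 and 17.7 CPM against 1.01 and 1.17 CPM (log2 4.02), with a genotype step of −0.23 that did not pass. Cxcr4, a chemokine receptor of endoderm and mesoderm, had 117 and 114 CPM against 35.9 and 37.3 CPM (log2 1.72 ± 0.09, adjusted p = 1.2e-16), with 120.4 and 117 CPM in wild-type Activin. Gsc, given above, was higher than in Chiron and lower than in wild-type Activin.

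Several epithelial genes of the list, though not Krt8, were lower than in Chiron. Cdh1, E-cadherin, had 9.48 and 10.1 CPM in Hox-/- Activin, 25.4 and 24.1 CPM in Chiron and 155 and 161 CPM in wild-type Activin (log2 against Chiron −1.28). Cldn4, a tight-junction claudin, had 2.15 and 1.87 CPM against 12.2 and 11.8 CPM (log2 −2.51 ± 0.20, adjusted p = 8.7e-12). Epcam (−0.70), Spink1 (−2.29) and Trh (−0.98) were also lower. Trh, thyrotropin-releasing hormone, gave 41 and 38.5 CPM in the mutant, 81.9 and 82.3 CPM in Chiron and 907 and 966 CPM in wild-type Activin. Cldn6 (7.33 and 7.95 CPM against 7.54 and 9.76 CPM in Chiron) and Krt18 (5.17 and 4.39 CPM against 6.04 and 5.3 CPM) did not pass the test against Chiron, with differences of −0.10 and −0.19. In wild-type Activin they stood at 173 and 171 CPM and at 156 and 161 CPM. Cldn7, Krt7, Krt19, Foxa1, Foxa3, Hnf4a and Prdm1 did not pass either.

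**Figure D3:**
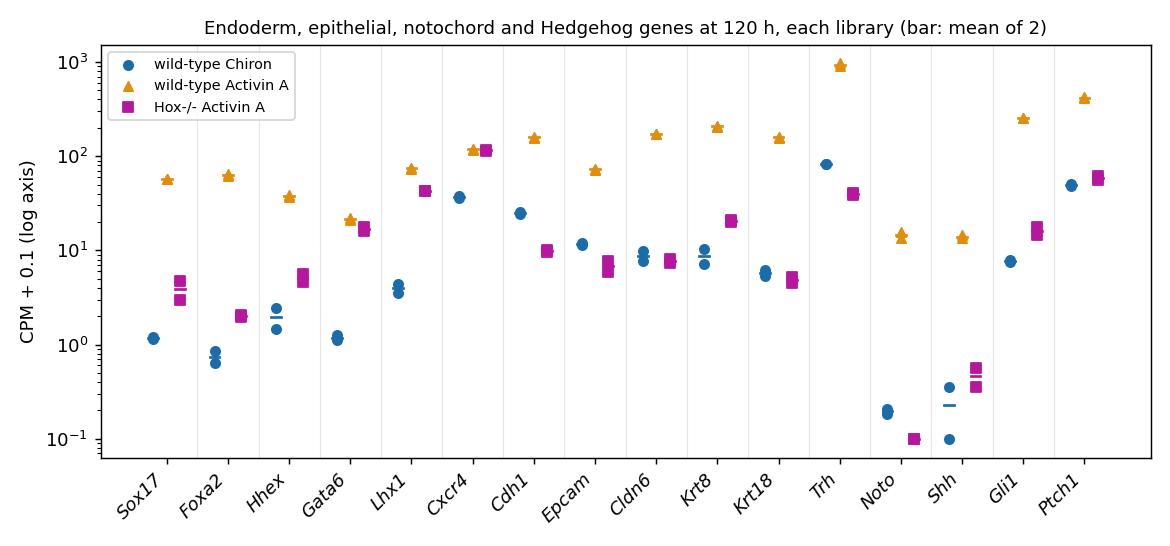
The x axis lists 16 genes of endoderm, epithelium, notochord and Hedgehog signalling, and the log y axis gives CPM plus 0.1 at 120 h. Points are libraries and bars the mean of 2. Wild-type Activin lies above for nearly all, as for Sox17 near 57 CPM, while Hox-/- Activin lies near Chiron except at genes such as Lhx1, Gata6 and Cxcr4.

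Of 11 tested regional gut transcription factors, 5 were higher and 3 lower, beside 21.7% and 22.0% of all genes. Osr1, a factor of gut and of lateral and intermediate mesoderm, had 18.2 and 18.9 CPM in the mutant and 0 and 0.318 CPM in Chiron (ratio 132, interval 44.8 to 642), with 13.5 and 13.7 CPM in wild-type Activin. Isl1 (8.1 and 8.51 CPM against 0.838 and 0.742 CPM, log2 3.43) and Tbx1 (3.53 and 4.21 CPM against 0.503 and 0.424 CPM, log2 3.08), of pharyngeal and cardiac progenitors, were higher too. Pax9, of pharyngeal endoderm and of the sclerotome that forms vertebrae, was lower, at 0.259 and 0.748 CPM against 11.8 and 14.8 CPM (log2 −4.66). Proteins of visceral endoderm and liver, cells this culture could also hold, were low: 0 of 10 tested members were higher and 4 lower (Apob, Ttr, Cubn and Dab2). The list's sum was 9.655 and 11.41 CPM in the mutant, 33.95 and 46.76 CPM in Chiron and 40.86 and 37.66 CPM in wild-type Activin.

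Shh and Noto, midline genes present in wild-type Activin, were at or near the floor in the mutant and in Chiron. Shh, the ligand made by node, notochord and gut endoderm, had 0.259 and 0.468 CPM in Hox-/- Activin, 0.252 and 0 CPM in Chiron and 14.5 and 13.4 CPM in wild-type Activin, a main difference that did not pass the test (adjusted p = 0.27). Noto, a homeobox gene of the node and notochord, was at or under the floor in the mutant and in Chiron and at 15.5 and 13.5 CPM in wild-type Activin, a genotype step of at least 53.7-fold lower. Gli1, the most direct transcriptional readout of Hedgehog signalling, had 14.6 and 17.5 CPM, 7.88 and 7.42 CPM, and 253 and 254 CPM (log2 against Chiron 1.12, treatment step 5.00, genotype step −3.88). Ptch1, the Shh receptor and a target, had 62 and 55.5 CPM, 50.8 and 48.1 CPM, and 426 and 411 CPM. Its difference from Chiron of 0.31 passed the test. Gli1 and Ptch1 were thus above Chiron by 1.12 and 0.31, against treatment steps of 5.00 and 3.03. Hhip did not pass (adjusted p = 0.2).

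Of 17 tested Hedgehog genes 6 were higher and 4 lower, beside 21.7% and 22.0% of all genes. Foxf1 and Foxf2, forkhead factors of lateral and splanchnic mesoderm that Hedgehog can induce, were higher than in Chiron. Foxf1 had 32.1 and 31.5 CPM in the mutant, 0.838 and 2.65 CPM in Chiron and 15.7 and 14.3 CPM in wild-type Activin (log2 against Chiron 4.33 ± 0.22, adjusted p = 1.5e-16). Foxf2 had 9.05 and 9.73 CPM against 0.922 and 0.212 CPM (log2 3.99). Boc and Gli2, which receive and transmit the signal, were lower. The co-receptor Boc had 74.7 and 72.1 CPM against 219 and 208 CPM (log2 −1.48 ± 0.06, adjusted p = 4.1e-19), and Gli2 25.6 and 24.5 CPM against 79 and 70.3 CPM (log2 −1.52).

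Among 11 tested node and notochord genes 5 were higher and 3 lower, beside 21.7% and 22.0% of all genes. The BMP antagonists of the organizer split: Nog was higher by 1.42, and Chrd, at 5.34 and 4.86 CPM against 8.72 and 8.59 CPM, was lower by 0.70, with 61.8 and 59.7 CPM in wild-type Activin. Sox9 (1.06) and Bicc1 (0.92), neither of them specific to the midline, were higher, as was T, or Brachyury, which also marks the tail bud (168 and 161 CPM against 131 and 152 CPM, log2 0.28). Pkd1l1, of the node's cilia, was lower by 1.69.

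Many segmentation genes were higher in Hox-/- Activin than in Chiron. Presomitic mesoderm is the tissue at the tail end from which somites are cut in turn, under an oscillator, the segmentation clock, that runs on Notch signalling. Of 22 tested presomitic and somitic genes 13 were higher and 7 lower against Chiron, beside 21.7% and 22.0% of all genes. The median was 0.82, and the list's sum was 2488 and 2466 CPM against 1630 and 1599 CPM. Wild-type Activin had 1065 and 1043 CPM, and in the treatment step 2 members were higher and 13 lower, against 20.7% and 21.9% of all genes. Of 18 clock and Notch genes, 4 of which are in both lists, 15 were higher and 2 lower, with a median of 0.94. In the treatment step 6 of them were higher and 8 lower, with a median of −0.06. Their sum was 3039 and 2966 CPM in Hox-/- Activin, 1363 and 1315 CPM in Chiron and 1199 and 1149 CPM in wild-type Activin.

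The promoters of the clock genes are shown because members with a match to the motif of Rbpj, the DNA-binding factor of Notch signalling, behaved unalike. Sequences are from RefSeq on GRCm38.p6, the mm10 build, and a promoter here is the 250 bases before to 50 bases after a gene's annotated start. Of the 18 members 15 had a promoter, and 4 of these, Hes5, Hes7, Hey2 and Lfng, held GTGGGAA on either strand, as did 7.25% of the 27025 genes with a promoter. A match is a string of letters and not evidence of binding. Lfng, a glycosyltransferase that tunes Notch receptors and oscillates with the clock, is shown with its 250 upstream bases on the plus strand, chr5:140607091-140607340, the match in capitals at −109 from the start.
Lfng: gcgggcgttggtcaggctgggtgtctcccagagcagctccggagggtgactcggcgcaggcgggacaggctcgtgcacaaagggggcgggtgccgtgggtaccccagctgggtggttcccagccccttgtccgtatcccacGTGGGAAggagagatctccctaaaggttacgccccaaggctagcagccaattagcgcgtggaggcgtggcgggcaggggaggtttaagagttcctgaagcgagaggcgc
The other 3 are shown as 51 bases around each upstream match, on the gene's own strand, 5′ to 3′, with the match in capitals. These windows were added after the values were seen. For Hes5 the matches lie at −226 (chr4:154960675-154960725, as the reverse complement) and −83 (chr4:154960818-154960868). For Hes7 the match lies at −180 (chr11:69120251-69120301) and for Hey2, on the minus strand, at −207 (chr10:30842962-30843012), both as the reverse complement.
Hes5 distal: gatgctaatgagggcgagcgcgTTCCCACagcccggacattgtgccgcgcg
Hes5 proximal: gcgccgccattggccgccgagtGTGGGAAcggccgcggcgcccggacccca
Hes7: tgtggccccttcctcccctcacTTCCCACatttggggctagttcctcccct
Hey2: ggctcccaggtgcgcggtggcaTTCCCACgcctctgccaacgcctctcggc
Lfng had 199 and 180.1 CPM in the mutant against 73 and 68.3 CPM in Chiron and 43.4 and 41.6 CPM in wild-type Activin (log2 against Chiron 1.48 ± 0.08, adjusted p = 8.1e-16). Hes7, the clock's core repressor, had 68.9 and 68.7 CPM against 55.9 and 63.4 CPM (log2 0.27), with a larger genotype step (1.43). Hes5, a Notch effector of neural progenitors, was lower at 4.91 and 4.77 CPM against 11.4 and 10.4 CPM (log2 −1.11), and Hey2 did not pass (−0.41, adjusted p = 0.066).

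Other genes of the clock moved further. Nrarp, a Notch target that limits Notch signalling, had 296 and 310.1 CPM in Hox-/- Activin, 80.1 and 82.1 CPM in Chiron and 52.8 and 53.1 CPM in wild-type Activin (log2 against Chiron 1.96 ± 0.06, adjusted p = 3.6e-22). Dll1, the Notch ligand of presomitic mesoderm, had 586 and 587 CPM against 208 and 213 CPM (log2 1.54 ± 0.06), and 102 and 105 CPM in wild-type Activin. Hey1, a Notch target, was higher by 1.57, and the receptors Notch3 and Notch1 by 1.31 and 1.27. Jag2 was lower by 0.60. For Nrarp and Dll1 Chiron lay between the Activin groups, below the mutant and above the wild type.

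Members of the presomitic list that were higher include genes of its front, where a somite is about to form. The members were grouped in this way after their values were seen, and Ripply1, unlike Ripply2, was lower. Mesp2, which sets the next boundary, had 89 and 87.3 CPM in the mutant, 9.39 and 11.7 CPM in Chiron and 8.21 and 9.22 CPM in wild-type Activin (log2 against Chiron 3.14 ± 0.18, genotype step 3.45). Ripply2, which ends Mesp2 expression, had 34.5 and 33.1 CPM against 5.95 and 6.26 CPM (log2 2.53), and 6.05 and 6.15 CPM in wild-type Activin. Mesp1 rose by 3.19 and Msgn1, of posterior presomitic mesoderm, by 1.89. Aldh1a2, which makes retinoic acid in somites and lateral mesoderm, had 273 CPM in both mutant libraries, 34.5 and 37.5 CPM in Chiron and 129 and 114 CPM in wild-type Activin (log2 2.99 ± 0.10, adjusted p = 8e-21). Tbx6, the T-box factor of presomitic identity, had 102 and 105 CPM against 38.1 and 46.8 CPM (log2 1.36). Foxc2, of anterior presomitic and paraxial mesoderm, had 218 and 212 CPM against 87.5 and 91.2 CPM (log2 1.33).

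The 7 members of the presomitic and somitic list that were lower than in Chiron include genes known from formed somites. Pax1, of the sclerotome, was at the floor in Hox-/- Activin and at 36.6 and 34.9 CPM in Chiron (ratio 799, interval 143 to 31600), with 1.84 and 1.1 CPM in wild-type Activin. Uncx, of the posterior part of each somite, had 11 and 11.4 CPM against 74.2 and 77.9 CPM (log2 −2.70 ± 0.11, adjusted p = 1.7e-18), and 11.9 and 11.2 CPM in wild-type Activin, a genotype step of 0.07 that did not pass. Meox2 had 2.59 and 1.87 CPM against 24.4 and 21.8 CPM (log2 −3.31). Meox1 (338 and 349 CPM against 567 and 515 CPM, log2 −0.60), Pax3 (−0.68), Tcf15 (−0.30) and Ripply1 (−0.76) fell by less. Myf5 and Tbx18 did not pass. For Uncx the low level was present in both Activin groups.

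**Figure D4:**
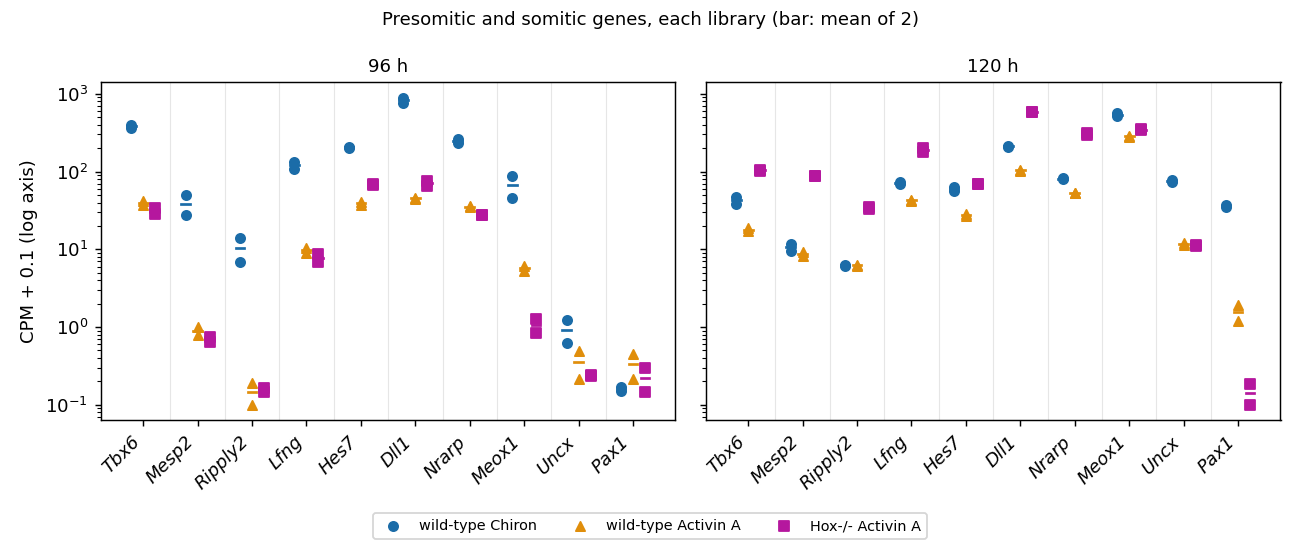
The x axis lists 10 presomitic and somitic genes, in a panel for 96 h and one for 120 h, and the log y axis gives CPM plus 0.1. Points are libraries and bars the mean of 2. At 120 h Mesp2, Ripply2, Dll1, Lfng and Nrarp are highest in Hox-/- Activin while Pax1 and Uncx are highest in Chiron, and at 96 h Chiron is above Hox-/- Activin for genes such as Dll1 and Lfng.

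At 96 h nearly all the genes of this list were lower than in Chiron. Of the 22 presomitic and somitic genes 0 were higher and 20 lower in Hox-/- Activin than in Chiron, with a median of −3.56, against 28.1% of all genes called lower and 34.3% called higher at that time. Of the clock genes 2 were higher and 14 lower (median −1.47). Dll1 had 75.14 and 65.54 CPM in Hox-/- Activin against 892.1 and 766.8 CPM in Chiron (log2 −3.54), and Lfng 8.556 and 6.754 CPM against 132.1 and 107.5 CPM (log2 −3.92). Mesp2 had 0.6546 and 0.535 CPM against 49.74 and 27.2 CPM (log2 −5.93), and Ripply2 was lower by a ratio of 177 (48.7 to 1470). Aldh1a2 (−4.28), Foxc2 (−7.12) and Tbx6 (−3.57) were lower too, as was Meox1 (−6.03), which was lower at both times. The difference between the times was itself called for Dll1 (5.08) and Nrarp (5.13). Across all genes, 10753 were called at 96 h (62.4%) and 8644 (50.2%) differed in their contrast between the times, 24.3% positively and 25.9% negatively. Called at both times were 5126 genes, of which 2526 had the same sign. At least 2-fold, 14.7% of genes were called higher and 8.22% lower at 96 h, 22.9% in all. Of the 1109 called at least 2-fold at both times, 669 had the same sign, 309 higher and 360 lower, and 440 had opposite signs.

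In contrast most members of the Nodal list were higher at both times, though the size of their differences changed. For 20 of its 23 tested members the difference between the times was called. It was more positive at 120 h for 12 and more negative for 8, beside 24.3% and 25.9% of all genes. At 96 h 16 members were higher and 6 lower, against 34.3% and 28.1% of all genes, with a median of 1.15. Of the 35 tested Hox genes 1 was higher and 29 were lower at 96 h.

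Genes of caudal progenitors, the cells of the tail bud, were divided. Of 16 tested 7 were higher and 6 lower, beside 21.7% and 22.0% of all genes. The median of 0.06 changed sign under 1 scaling. The caudal homeobox genes moved apart. Cdx1 had 137 and 146 CPM in Hox-/- Activin, 27.8 and 32.5 CPM in Chiron and 13.4 and 10.8 CPM in wild-type Activin (log2 against Chiron 2.30 ± 0.09, adjusted p = 1.6e-19). Cdx4 had 15.8 and 20.4 CPM against 75 and 88 CPM (log2 −2.11 ± 0.10, adjusted p = 1.7e-17), and 3.24 and 3.73 CPM in wild-type Activin. Cdx2 had 143 and 135 CPM against 216 and 233 CPM (log2 −0.63), and 88.8 and 91.2 CPM in wild-type Activin. Only Cdx1 of the 3 thus exceeded Chiron, while all 3 exceeded wild-type Activin. Epha5 was lower by 3.17 and Wnt5b higher by 1.00. The progenitor genes Wnt3a (−0.06, adjusted p = 0.69) and Fgf8 (0.18, adjusted p = 0.064) did not pass. Cyp26a1, which degrades retinoic acid at the tail end, had 33.8 and 36.9 CPM against 27.2 and 28.7 CPM (log2 0.40), but 136 and 134 CPM in wild-type Activin.

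Wnt signalling is what Chiron is given to raise, so its targets were read next. Of 20 tested targets and antagonists 14 were higher and 4 lower in Hox-/- Activin than in Chiron at 120 h, beside 21.7% and 22.0% of all genes. At 96 h the list ran the other way, 4 higher and 11 lower with a median of −0.77, beside 34.3% and 28.1% of all genes. The difference between the times was called for 18 of the 20, 15 more positive at 120 h and 3 more negative. The values that follow are for 120 h. Lef1, the Wnt effector that is itself a target, had 414 and 412 CPM in the mutant, 110.5 and 116 CPM in Chiron and 87.9 and 83.4 CPM in wild-type Activin (log2 against Chiron 1.93 ± 0.06, adjusted p = 6.3e-22). The feedback inhibitor Axin2 had 173 and 170 CPM against 105 and 112 CPM (log2 0.73), and 50 and 50.6 CPM in wild-type Activin. Apcdd1, also an inhibitor, was higher by 1.39, and Nkd2, an inhibitor outside the list, by 2.43. Lower were Notum, which cleaves a lipid from Wnt proteins (15.9 and 15.8 CPM against 42.2 and 48.8 CPM, log2 −1.45), the antagonist Sfrp2 (−1.12) and Rnf43 (−0.69), which removes Wnt receptors.

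The promoter of Sp5, a zinc-finger gene that is a direct Wnt target, is shown as the 1 of 13 matched members that held the TCF motif CTTTGAT on either strand, which 4.29% of genes hold. Its 250 upstream bases lie on the plus strand at chr2:70474673-70474922, with the match at −104 in capitals.
Sp5: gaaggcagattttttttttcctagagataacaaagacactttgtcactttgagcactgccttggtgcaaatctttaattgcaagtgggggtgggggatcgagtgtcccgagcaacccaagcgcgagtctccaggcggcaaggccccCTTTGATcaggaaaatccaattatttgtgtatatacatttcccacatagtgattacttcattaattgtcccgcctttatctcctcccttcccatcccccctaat
Sp5 itself moved little, at 18.4 and 19 CPM in Hox-/- Activin, 14.2 and 17.2 CPM in Chiron and 19.5 and 16.6 CPM in wild-type Activin (log2 against Chiron 0.33, adjusted p = 0.028). Promoter searches for the other lists gave no called member to show. GLI CCACCCA was in 1 of 13 matched Hedgehog genes (Nkx2-9) and in 10.6% of genes. FOXA TGTTTAC was in 2 of 18 endoderm genes (Foxa1 and Prdm1) and in 4.05% of genes. T-box TCACACC was in 0 of 13 caudal genes and in 4.6% of genes.

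Ligands of the Wnt family were higher in 13 of 19 and lower in 2, beside 21.7% and 22.0% of all genes. Wnt4, of mesoderm and urogenital tissue, had 36.2 and 32.8 CPM against 5.28 and 4.77 CPM in Chiron and 12.4 and 12.2 CPM in wild-type Activin (log2 against Chiron 2.83 ± 0.14). Wnt8b was higher by 4.05, and Wnt16 (3.96 and 3.18 CPM against 26.4 and 24.4 CPM, log2 −2.76) and Wnt9a (−1.29) were lower. Of 22 FGF pathway genes 13 were higher and 5 lower. The receptor Fgfr1 had 754 and 726 CPM against 278 and 261 CPM (log2 1.52 ± 0.05, adjusted p = 2.1e-21), and the ligand Fgf10 13.3 and 12.9 CPM against 0.838 and 0.954 CPM (log2 3.93). Spry4, a feedback inhibitor, was higher by 1.09.

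Most endothelial and blood genes were higher than in Chiron. Of 16 tested endothelial and blood genes 13 were higher and 1 lower, beside 21.7% and 22.0% of all genes. Their median was 2.01, and their sum was 193.4 and 187.5 CPM against 52.05 and 50.79 CPM. Wild-type Activin had 223.3 and 228.9 CPM. Kdr, the VEGF receptor that marks vascular and lateral mesoderm, had 44.6 and 46.1 CPM in Hox-/- Activin, 1.84 and 1.38 CPM in Chiron and 24.1 and 31.4 CPM in wild-type Activin (log2 against Chiron 4.85 ± 0.18, adjusted p = 1.1e-19). Tal1, the switch for blood and endothelial fate, had 8.79 and 6.64 CPM against 0.419 and 0.318 CPM (log2 4.40 ± 0.36). Lmo2, its partner, had 53.5 and 52.4 CPM against 15.1 and 15.5 CPM (log2 1.86), and Egfl7 was higher by 1.14. Among genes of later vessels, Cdh5 and Pecam1 went opposite ways. Cdh5, VE-cadherin, had 2.5 and 2.71 CPM against 0.252 and 0.424 CPM. Pecam1 was the member that was lower, at 0.431 and 0.468 CPM against 2.85 and 3.82 CPM (log2 −2.79). The embryonic globins Hba-x, Hbb-bh1 and Hbb-y had 0 counts in every 120 h library.

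Lateral and cardiac mesoderm genes were higher in part. Of 11 intermediate and lateral mesoderm genes 6 were higher and 3 lower, beside 21.7% and 22.0% of all genes. Bmp4 had 12.3 and 12.4 CPM against 2.93 and 3.5 CPM (log2 2.02), and Hand1, of lateral plate and heart, 2.93 and 3.27 CPM against 0 and 0.212 CPM (ratio 33.1, interval 8.81 to 278). Of 15 cardiac genes 7 were higher and 0 lower. Gata5 had 11.5 CPM in both mutant libraries and 0.0838 and 0.106 CPM in Chiron (ratio 123, interval 33.6 to 1020), with 7.24 and 8.89 CPM in wild-type Activin. Myl4, an atrial myosin light chain, had 4.4 and 4.96 CPM against 0.503 and 0.424 CPM (log2 3.36). Actc1, cardiac actin, had 16.6 and 13.1 CPM against 5.28 and 4.03 CPM (log2 1.72). Other genes of the contracting heart, Tnnt2, Tnni1, Myh6, Myh7 and Myl7, and the regulator Nkx2-5 did not pass the test.

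Many neural and most pluripotency genes were lower in Hox-/- Activin than in Chiron. Of 19 neural genes 1 was higher and 9 lower, beside 21.7% and 22.0% of all genes. Sox3, of neural progenitors, had 3.19 and 4.21 CPM against 18.2 and 18.1 CPM in Chiron and 14.6 and 13.5 CPM in wild-type Activin (log2 against Chiron −2.24). Pax6 had 0.517 and 0.561 CPM against 8.13 and 8.16 CPM (log2 −3.84), Sox21 0.431 and 0.842 CPM against 8.47 and 7.63 CPM (log2 −3.61), and Pax7 was lower by 1.67. Anterior neural genes were higher in 4 of 10 and lower in 0. In the genotype step 3 of the 10 were higher and 7 lower, beside 23.0% and 23.9% of all genes. Otx2, of forebrain and of anterior endoderm, had 8.62 and 7.58 CPM against 3.35 and 2.86 CPM in Chiron and 104 and 114 CPM in wild-type Activin.

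Of 18 pluripotency genes 16 were lower and 1, Klf4, was higher, beside 22.0% and 21.7% of all genes, with a median of −3.62. Dppa5a had 2.15 and 2.81 CPM against 149.5 and 150.4 CPM in Chiron and 31.8 and 33.8 CPM in wild-type Activin (log2 against Chiron −5.86 ± 0.17, adjusted p = 1.8e-22). Pou5f1, or Oct4, had 6.03 and 5.14 CPM against 63.9 and 73.4 CPM (log2 −3.54), Nanog 1.29 and 1.5 CPM against 22.5 and 23.2 CPM (log2 −3.97), and Sox2, also neural, 17.4 and 15.8 CPM against 57.7 and 60.6 CPM (log2 −1.77). These 4 genes were lowest in Hox-/- Activin, intermediate in wild-type Activin and highest in Chiron. Of 9 primordial germ cell genes 1, Ifitm3, was higher (1.39) and 4 were lower, Tfap2c by 1.36. Ddx4, a germ cell helicase, was lower by a ratio of 47 (8.01 to 1900). At 96 h Pou5f1 stood the other way, at 760 and 774.1 CPM in Hox-/- Activin against 88.28 and 118.3 CPM in Chiron. At that time 5 pluripotency genes were higher and 9 lower, beside 34.3% and 28.1% of all genes.

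The genes with the smallest p among large changes, Hox genes left out, included few lineage regulators. After Lefty2, the higher ones were Dact1, a modulator of Wnt signalling (271 and 262 CPM against 38.9 and 37.9 CPM, log2 2.86 ± 0.06), the tropomyosin Tpm1 (1.84), the antiproliferative gene Btg2 (2.54), Fn1, Nkd2, H19 and the netrin receptor Unc5b (2.31). Fn1, fibronectin, the matrix protein around mesoderm and somites, had 1508 and 1406 CPM against 318 and 283.9 CPM in Chiron and 628.7 and 614.8 CPM in wild-type Activin (log2 against Chiron 2.33 ± 0.06, adjusted p = 8.3e-24). Among the lower ones Hoxaas3, Hoxb5os and Hoxb3os are non-coding RNAs that lie within Hox clusters. Cxcl12, the ligand of Cxcr4, had 83.4 and 75 CPM against 755 and 711 CPM in Chiron and 189.6 and 189.8 CPM in wild-type Activin (log2 against Chiron −3.15 ± 0.06). Igfbp5, which binds insulin-like growth factors, had 81.72 and 83.6 CPM against 1553 and 1158 CPM (log2 −3.98). Selenop, a selenium carrier, had 35.9 and 32.6 CPM against 213 and 179 CPM (log2 −2.46). So Cxcr4 was higher and its ligand lower in the same libraries.

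Imprinted genes, expressed from 1 parental copy, gave some of the widest gaps but no common direction, 7 of 24 higher and 8 lower. Of all genes 21.7% were called higher and 22.0% lower. Grb10, an adaptor that limits growth signalling, had 5.43 and 4.39 CPM in Hox-/- Activin, 230.3 and 226 CPM in Chiron and 430.1 and 426 CPM in wild-type Activin (log2 against Chiron −5.47 ± 0.09, adjusted p = 6.8e-29), and was lower by 5.13 at 96 h as well. H19, a non-coding RNA, had 2279 and 2342 CPM against 242.7 and 219.4 CPM (log2 3.38 ± 0.09), with 277 CPM in both wild-type Activin libraries, and was lower by 2.44 at 96 h. Mest was lower by 1.71 and Peg3 higher by 1.37. Igf2, the neighbour of H19, did not pass (0.11). For Grb10 and H19 the 2 wild-type groups lay much closer to each other than to the mutant, and whether this belongs to the genotype or to the line that carries it cannot be told apart.

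The remaining lists each had members on both sides, though glycolysis genes were mostly higher. Their counts stand beside 21.7% of all genes called higher and 22.0% called lower. Of 21 genes of epithelial to mesenchymal transition 10 were higher and 7 lower, among them Snai1, which represses E-cadherin (84.7 and 82.1 CPM against 19.2 and 21.5 CPM, log2 2.10), and Prrx2 (1.02). Of 13 retinoic acid genes 5 were higher and 4 lower, with Aldh1a2 up and Crabp2, which carries retinoic acid to the nucleus, at 38.3 and 39.7 CPM against 157 and 149.8 CPM (log2 −1.92). Of 20 BMP genes 11 were higher and 6 lower, Id2 by −1.83 and Gdf11, a ligand of the tail end, by −1.32. Of 12 neural crest and limb genes 4 were higher and 2 lower, with Alx4 (2.35) and Lmx1b (1.33) higher. Of 17 glycolysis genes 11 were higher and 2 lower, the latter the glucose transporters Slc2a3 (164 and 162 CPM against 406 and 405 CPM, log2 −1.25) and Slc2a1 (−0.89), while Ldha and Pfkl were higher by 0.58 and 0.60. Of 15 proliferation genes 4 were higher and 5 lower, with a median of −0.04 (0.001 without Hox-/- Activin replicate 2). Of 13 targets of p53 2 were higher, Cdkn1a by 0.76, and 2 lower.

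**Figure D5:**
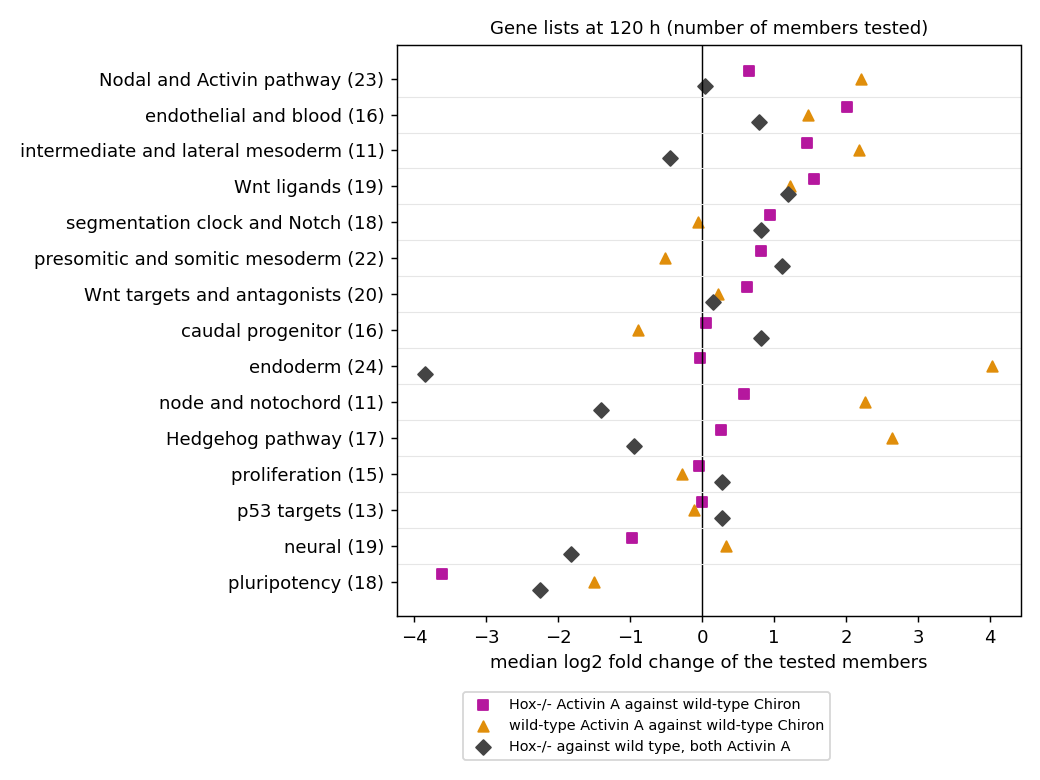
Each row is 1 of 15 gene lists and the x axis gives the median log2 difference of its tested members at 120 h, for Hox-/- Activin against Chiron, wild-type Activin against Chiron (treatment step) and Hox-/- against wild-type in Activin (genotype step). Endoderm lies at −0.03, 4.03 and −3.85, and Nodal and Activin at 0.65, 2.21 and 0.04. The 3 contrasts share libraries, and the fitted median of the Wnt ligands' treatment step, 1.22, becomes 0.00 when genes with 0 counts in a group take their lower bound.

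The treatment and genotype steps of some lists are set side by side here. Both use the wild-type Activin libraries, with opposite signs, so steps of opposite sign are not separate results. Endoderm had a large treatment step, a genotype step of about the same size the other way, and a median of −0.03 against Chiron. Node and notochord (treatment step 2.26, genotype step −1.41) and Hedgehog genes (2.64 and −0.94) had the same pair of signs. Nodal and Activin genes had a treatment step of 2.21 and a genotype step of 0.04. That small median stands for members that moved both ways. In the genotype step 10 of the 23 tested were higher and 7 lower, beside 23.0% and 23.9% of all genes. At least 2-fold were 1 of the higher and 5 of the lower, beside 3.16% and 10.6%. Endothelial and blood genes had 1.47 and 0.78. Presomitic and somitic genes had a negative treatment step (−0.52) and a positive genotype step (1.10), and stood above Chiron.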

How the data were processed

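Read counts per gene and FPKM values for the same genes were deposited by the authors in one table for wild-type and Hox-/- Activin gastruloids and one for wild-type Activin and Chiron gastruloids. Per the submitters' processing notes the tools were cutadapt 1.16, STAR and Cufflinks 2.2.1, and the genome build mm10. Cufflinks yields FPKM (fragments scaled by transcript length and library size), and the tool and strand setting behind the deposited counts are not given in the sources used here. The tables were joined by gene identifier (55141 genes) after the 4 wild-type Activin libraries in both were checked to hold equal counts. Genes were filtered with filterByExpr, scaled by TMM and fitted with edgeR 4.0.16 in R 4.3.3, with 1 coefficient for each of the 6 gastruloid groups (12 libraries, 6 residual degrees of freedom, common biological coefficient of variation 0.0377). p-values were adjusted by Benjamini-Hochberg over the 17235 genes tested. CPM divide deposited counts by the library total. DESeq2 1.42.0, limma 3.58.1 on log2(FPKM + 1) and log2(FPKM + 0.1), other scalings and filters, a replicate block and leaving out each library were alternatives. The fitting steps were tested on simulated data. Figures and tables were made with Python 3.11.15, pandas 2.3.3 and numpy 2.4.6.

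The comparison and the 30 gene lists were chosen with earlier results of these data known. Named genes are the 8 per direction with the smallest p among non-overlapping calls of at least 2-fold (Y-linked, Hox and unnamed gene models left out), up to 4 called members per list, all Hox genes, all Nodal and Activin genes, and 3 per direction for the difference between times. Other named members were chosen after their values were seen. Replicate numbers did not pair the libraries: deviations of same-numbered libraries correlated between −0.034 and 0.068, so no block was used. Some members of the lists are counted but not reported by name here.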

Additional observations from a re-analysis of the deposited data

Results flagged for a closer look

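The difference between Hox-/- Activin and wild-type Chiron gastruloids was not the same at 96 h and at 120 h for 8644 genes, by edgeR's test of the difference between the contrasts (adjusted p under 0.05). For 4180 genes it was more positive at 120 h and for 4464 more negative, and 2600 of the 8644 were called at both times with opposite signs. The limits given above for the 96 h libraries, their depth and the spread of the Chiron replicates, hold for these calls too. Values follow for the 3 genes per direction with the smallest p.

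Pcdh19, a protocadherin of presomitic mesoderm and brain, differed between the times by 8.80 on the log2 scale. It had 3.553 and 4.079 CPM in Hox-/- Activin and 325 and 232.4 CPM in Chiron at 96 h, and 326 and 307 CPM against 56.8 and 50.8 CPM at 120 h. The Notch genes Nrarp and Dll1 differed between the times by 5.13 and 5.08. Nrarp had 27.4 and 27.42 CPM against 265.6 and 231.3 CPM at 96 h and was above Chiron at 120 h.

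Pou5f1 differed by −6.44, higher than Chiron at 96 h and lower at 120 h. Cd36, a fatty acid transporter, differed by −5.50, with 79.06 and 73.69 CPM against 4.575 and 3.713 CPM at 96 h and 12.8 and 13.8 CPM against 34.5 and 32.1 CPM at 120 h. Igfbp3, which binds insulin-like growth factors, differed by −4.52. It had 989.5 and 971.1 CPM against 56.89 and 65.27 CPM at 96 h and 23.8 and 20 CPM against 33.1 and 31.9 CPM at 120 h.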

How the results depend on the processing

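Every count of called genes stayed within 1.5 times its value under each alternative run. Genes called at 120 h between Hox-/- Activin and Chiron ranged from 5726 to 7772, and from 5971 to 6516 with a library left out. The replicate block gave 7577, against 7348 for the treatment step, 8102 for the genotype step, 10796 at 96 h and 8670 for the difference between times, and it changed no call of a named gene. With a library left out the ranges were 5740 to 6389, 6692 to 6842, 9259 to 10294 and 7626 to 8713 in the same order. The share of calls higher in Hox-/- Activin was 49.7%. It was 40.2% with total counts alone, 46.3% with upper quartile factors, 52.8% with no filter, 50.8% with DESeq2, 45.1% and 45.5% with limma on log2(FPKM + 1) and log2(FPKM + 0.1), 53.5% with only the 3 groups at 120 h, and 49.8% to 51.4% with a library left out. The Hox sum as a percent of Chiron was 3.80 in FPKM and 3.02 to 3.29 with a library left out. Total counts alone moved the median of all genes to −0.0642. Of 2635 pairs of a named gene and an alternative, 2605 kept direction and call, 28 lost the call, 2 gained it and 0 turned. Calls were lost for Hoxb3os, Hoxa4, Gbx2, Crabp1, Wt1, Mcm2, Aurkb, Bax, Acvr2b and Smad2, and for Hoxc11 without either Hox-/- Activin library. The median of the caudal list turned to −0.003 with total counts and that of the imprinted list to −0.002 without Chiron replicate 2. That of the proliferation list turned from −0.038 to 0.001 without Hox-/- Activin replicate 2, and that of the p53 list from −0.007 to 0.007 and 0.012 without Hox-/- Activin replicates 1 and 2. Without Chiron replicate 1 the cardiac median moved from 1.25 to 0.403, and without Hox-/- Activin replicate 1 the anterior neural median from 1.14 to 0.626 and the node and notochord median from 0.58 to 0.348. Without Hox-/- Activin replicate 2 the visceral endoderm median moved from −1.57 to −2.942, the neural crest median from 0.87 to 0.418, the regional gut median from 0.78 to 0.48 (0.365 without Chiron replicate 2) and that of epithelial to mesenchymal genes from 0.12 to 0.465 (0.511 without Chiron replicate 2). Without Chiron replicate 2 the BMP median moved from 0.31 to 0.566. That of the endoderm list ran from −0.093 to 0.042. The causes were not tested. With 2 libraries per group and 9431255 to 11930416 counts, genes of a few CPM, such as Foxa2 and Hoxd13, have the widest errors.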

Other observations

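Some values outside the lists' main account bear on how alike the groups were. Among the Wnt antagonists Dkk1, of anterior mesendoderm, had 6.29 and 4.21 CPM in Hox-/- Activin, 1.59 and 2.23 CPM in Chiron and 56.1 and 57 CPM in wild-type Activin, a pattern of levels like that of Sox17. Flt1, a VEGF receptor, had 6.21 and 5.42 CPM, 1.17 and 1.06 CPM, and 56.5 and 55.5 CPM in the same order, although Kdr was higher in the mutant than in wild-type Activin. Fgf5, of epiblast and nascent mesoderm, had 4.74 and 6.36 CPM, 1.01 and 0.53 CPM, and 36.5 and 35.6 CPM. Proliferation genes differed more between the Activin groups than from Chiron. In the genotype step 13 of 15 were higher and 0 lower, against 23.0% and 23.9% of all genes. The median was 0.28, and 0 were at least 2-fold. In the treatment step, which uses the same wild-type Activin libraries, 0 were higher and 13 lower, with a median of −0.28.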
